A study of Mus musculus with 4 samples.

Results

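Expression of the Wnt ligand, receptor and secreted modulator genes was examined in mouse embryonic stem cells driven towards mesoderm. The members were the protein-coding rows of the deposited table named Wnt, Fzd, Sfrp, Dkk or Rspo with a number and an optional letter a or b, plus Frzb, Lrp5, Lrp6, Wls and Porcn. This gave 46 of 51826 genes: 19 Wnt ligands, 2 genes of ligand processing, 10 Frizzled receptors, 2 co-receptors, 4 R-spondins, 5 secreted Frizzled-related proteins and 4 Dickkopf genes. RNA sequencing was done on 2 Stk40-/- libraries and 2 wild-type libraries, all from cells of the C57BL/6 background collected at day 3. Stk40 encodes a pseudokinase, and the study asked how its loss affects c-JUN protein and mesoderm formation. Cells of both genotypes had grown on feeder fibroblasts, were moved to gelatin, and were given 10 ng/ml of BMP4 for 2 days, followed by 1 uM of CHIR99021, which inhibits GSK3, in medium with 0.5% DMSO. CHIR99021 was thus present in the medium of both genotypes, also during the maintenance of the stem cells. The labels do not say how many lines or cultures stand behind a genotype, so a p-value reflects only how far these libraries scatter, which may be technical scatter, and a difference between genotypes cannot be told apart from one between lines.

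Wnt proteins are secreted lipid-modified ligands: the acyltransferase Porcn attaches the lipid in the endoplasmic reticulum and the carrier Wls takes the ligand to the cell surface. A Wnt binds a Frizzled receptor and, in the beta-catenin branch, the co-receptors Lrp5 or Lrp6, which stops GSK3 from marking beta-catenin for destruction. R-spondins prolong the life of Frizzled and Lrp receptors at the surface, and secreted Frizzled-related proteins bind Wnts outside the cell. Some Dickkopf proteins, such as Dkk1, block the Lrp co-receptors. In the mouse embryo, Wnt3 is needed to form the primitive streak and Wnt3a and Wnt5a to extend the body axis from it. A GSK3 inhibitor acts below the receptors, so beta-catenin signalling under CHIR99021 does not require a ligand.

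Levels are in TPM, a transcript abundance relative to the library total that is scaled for transcript length, so that levels can be compared between genes. Each log2 fold change is that of Stk40-/- over wild type, fitted with limma to log2(TPM + 1), a scale that shrinks the changes of low genes. Adjusted p-values are Benjamini-Hochberg values over the 15739 genes that averaged 1 TPM or more. Of the 46 members 29 were tested and 17 lay below this filter. Across all genes 0 passed an adjusted p of 0.05 (0% of those tested, smallest limma adjusted p = 0.114), while 710 lower genes (4.51%) and 1020 higher genes (6.48%) had an unadjusted p under 0.05. Stk40 itself, the check of the labels, was at 3.54 and 3.17 TPM in Stk40-/- cells, against 28.9 and 39.9 TPM in wild type. The mesoderm label was borne out in part: the streak gene T had 355 and 217 TPM in Stk40-/- cells and 1025 and 535 TPM in wild type, whereas the mesoderm genes Mesp1 and Kdr stayed below 1 TPM in all 4 libraries.

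Of the family, 0 members passed in limma (smallest adjusted p = 0.289, for Porcn), and 5 lower and 1 higher of the 29 tested had an unadjusted p under 0.05. In 7 tested members (24.1%) both Stk40-/- values were below both wild-type values, a pattern found in 16.6% of all tested genes. In 13 (44.8%) both were above, against 27.5% of all tested genes. Negative fold changes were found in 12 of the 29, against 41.4% of all tested genes. The median log2 fold change was 0.12 over the tested members and 0.065 over all tested genes. The 7 lower members were the ligands Wnt3, Wnt5a and Wnt5b, the processing genes Wls and Porcn, the receptor Fzd10 and the R-spondin Rspo3. The 13 higher members were 7 Frizzleds, the co-receptors Lrp5 and Lrp6, the Wnt-binding Sfrp1 and Sfrp2, and the ligands Wnt9a and Wnt16. In 12 of the 29 the difference between the replicates of 1 genotype was larger than the fold change, against 68.8% of all tested genes. Wnt5a, Wnt16, Rspo3 and Sfrp4 had a mean below 1 TPM in 1 genotype and passed the filter through the other. A member that passes through its higher group alone is bound to differ, so these counts are descriptions. Among the 17 members below the filter, 2 were lower and 4 higher in Stk40-/- cells with no overlap, and 11 overlapped. The shares over all genes below the filter were not counted, so these numbers have no background and are not a result about the members.

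**Figure D1:**
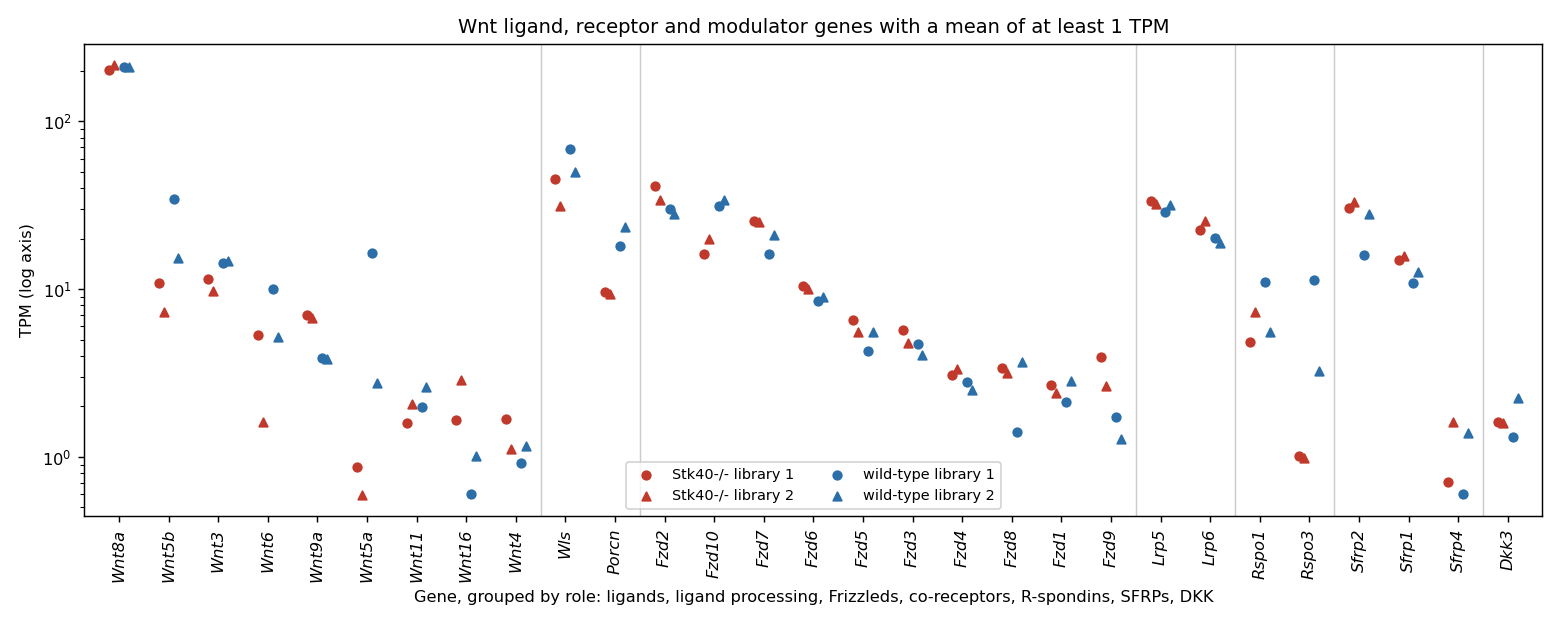
TPM on a log axis for the 29 tested members, grouped by role, with 1 point per library (red: Stk40-/-, blue: wild type). Wnt8a lies above 200 TPM in all 4 libraries, and the red points lie below the blue ones for Wnt5b, Wnt5a, Porcn, Fzd10 and Rspo3.

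Promoter windows of 6 members on which the results turn are shown here, to set the letters of genes that were lower (Wnt3, Wnt5b, Wnt3a, Fzd10) beside those of genes that were higher (Wnt9a, Fzd7). Each runs 5′ to 3′ from 250 bases before to 50 bases after a RefSeq transcription start on GRCm38.p6. Capitals mark the word CTTTG followed by a pair of bases that are each A or T, on either strand, which matches the core bound by the TCF and LEF partners of beta-catenin.
Wnt3, chr11:103773925-103774224, plus strand: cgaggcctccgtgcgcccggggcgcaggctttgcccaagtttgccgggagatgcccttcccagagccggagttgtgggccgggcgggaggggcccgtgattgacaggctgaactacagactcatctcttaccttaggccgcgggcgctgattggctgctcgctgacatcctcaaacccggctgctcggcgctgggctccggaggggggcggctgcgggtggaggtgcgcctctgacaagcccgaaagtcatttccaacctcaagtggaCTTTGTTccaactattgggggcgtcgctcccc
Wnt5b, chr6:119449337-119449636, minus strand, 1 of 3 starts: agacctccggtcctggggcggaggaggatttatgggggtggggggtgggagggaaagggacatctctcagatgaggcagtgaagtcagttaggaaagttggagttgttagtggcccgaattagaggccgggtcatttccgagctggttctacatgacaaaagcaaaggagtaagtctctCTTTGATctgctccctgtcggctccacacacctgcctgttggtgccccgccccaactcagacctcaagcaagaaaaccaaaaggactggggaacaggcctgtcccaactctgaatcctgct
Wnt3a, chr11:59290702-59291001, minus strand: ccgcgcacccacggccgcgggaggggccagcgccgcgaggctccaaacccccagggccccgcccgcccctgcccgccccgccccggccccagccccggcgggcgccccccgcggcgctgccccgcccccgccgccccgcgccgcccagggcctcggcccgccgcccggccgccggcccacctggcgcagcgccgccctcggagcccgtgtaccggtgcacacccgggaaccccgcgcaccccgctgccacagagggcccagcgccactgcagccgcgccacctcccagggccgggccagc
Wnt9a, chr11:59306680-59306979, plus strand: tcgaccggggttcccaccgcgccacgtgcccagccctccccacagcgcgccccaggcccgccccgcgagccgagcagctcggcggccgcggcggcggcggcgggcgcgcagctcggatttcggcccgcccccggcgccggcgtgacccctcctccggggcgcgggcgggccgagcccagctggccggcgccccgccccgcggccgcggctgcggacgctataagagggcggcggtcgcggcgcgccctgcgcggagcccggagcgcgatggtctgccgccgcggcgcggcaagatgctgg
Fzd10, chr5:128600856-128601155, plus strand: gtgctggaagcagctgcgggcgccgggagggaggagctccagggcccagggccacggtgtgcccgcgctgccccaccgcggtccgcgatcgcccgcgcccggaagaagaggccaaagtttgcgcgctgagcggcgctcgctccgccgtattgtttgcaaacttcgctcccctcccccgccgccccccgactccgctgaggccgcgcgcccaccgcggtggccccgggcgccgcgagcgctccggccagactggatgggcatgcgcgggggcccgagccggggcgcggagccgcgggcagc
Fzd7, chr1:59481897-59482196, plus strand: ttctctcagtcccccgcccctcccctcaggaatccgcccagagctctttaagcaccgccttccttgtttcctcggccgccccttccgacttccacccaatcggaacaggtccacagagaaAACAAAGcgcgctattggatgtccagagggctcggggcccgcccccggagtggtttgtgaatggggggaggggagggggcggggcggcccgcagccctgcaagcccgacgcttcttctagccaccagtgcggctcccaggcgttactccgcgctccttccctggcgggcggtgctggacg
Of 32 windows from the 29 members with an entry, 5 held such a word, and 16.9% of all 32851 windows of 300 bases did. Among the 6 shown, Wnt3 and Wnt5b, which were lower, and Fzd7, which was higher, each hold 1, which in Fzd7 is on the other strand. The Wnt5b window was picked from its 3 starts because it holds a word, and the windows of its other starts hold 0. The words of the other windows were 2 in Dkk1 and 1 in an upstream start of Wnt11. The brachyury half-site TCACACC, searched on both strands, occurred in 0 of the 32 member windows and in 3.98% of all windows. The windows of Wnt3a and Wnt9a, genes that lie 16.2 kb apart and run in opposite directions, are 86.3% and 83.3% G or C.

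Wnt8a made up most of the ligand RNA and was level between genotypes. Wnt8a, a ligand of the early streak, was at 203 and 215 TPM in Stk40-/- cells and at 211 and 212 TPM in wild type. The groups overlapped, and the log2 fold change was -0.02 (95% interval from limma -0.21 to 0.17). Wnt8a took 82.3% and 86.0% of the summed ligand TPM in Stk40-/- cells and 70.8% and 81.0% in wild type. The other 18 ligands together came to 43.5 and 35.1 TPM in Stk40-/- cells, against 87.0 and 49.7 TPM in wild type.

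Next in level were Wnt3 and Wnt5b, and both were lower in Stk40-/- cells. Wnt3 was at 11.5 and 9.80 TPM in Stk40-/- cells and at 14.4 and 14.6 TPM in wild type (log2 fold change -0.42, SE 0.16, limma adjusted p = 0.454). Its groups did not overlap, and leaving out any 1 library kept the value between -0.52 and -0.32. Wnt5b, a ligand known for beta-catenin-independent signalling in cell movement, was at 10.9 and 7.29 TPM in Stk40-/- cells and at 34.3 and 15.3 TPM in wild type (log2 fold change -1.27, SE 0.44, limma adjusted p = 0.446). Here the wild-type libraries lay further apart than wild-type library 2 lay from the Stk40-/- libraries. Wnt5b is overlapped on the other strand by Fbxl14, at 45.7 and 37.3 TPM in Stk40-/- cells and 63.7 and 45.1 TPM in wild type. The overlap is one of whole gene spans, and whether exons overlap was not examined. Nothing in the sources used here says that strand was used in counting. In Stk40-/- cells the levels of Wnt3 and Wnt5b overlapped, while in wild type Wnt5b lay above Wnt3 in both libraries.

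Wnt5a, Wnt3a and the R-spondin Rspo3, genes of the tailbud and presomitic mesoderm in the mouse embryo, had their highest values in wild-type library 1. Wnt5a was at 0.865 and 0.594 TPM in Stk40-/- cells and at 16.4 and 2.76 TPM in wild type (log2 fold change -2.23, SE 0.80, limma adjusted p = 0.447). Rspo3 was at 1.01 and 0.988 TPM in Stk40-/- cells and at 11.4 and 3.24 TPM in wild type (log2 fold change -1.86, SE 0.59, limma adjusted p = 0.430). Leaving out wild-type library 1 gave log2 fold changes of -1.12 for Wnt5a, -1.08 for Rspo3 and -0.71 for Wnt5b. Leaving out wild-type library 2 gave -3.33 for Wnt5a, -2.63 for Rspo3 and -1.83 for Wnt5b. Wnt3a, below the filter and not tested, was listed at 0 and 0.0559 TPM in Stk40-/- cells and was at 1.11 and 0.599 TPM in wild type. Both Stk40-/- values were below both wild-type values in all 3 genes, a pattern found in 16.6% of all tested genes. Wnt5a and Rspo3 passed the filter through wild type and so were bound to differ, and Wnt3a was not tested. This count is therefore a description. The ratio of Wnt5b to Wnt5a was 12.6 and 12.3 in Stk40-/- cells, against 2.10 and 5.53 in wild type.

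Several mesoderm markers, though not all, had the same order of libraries as these genes. The presomitic factor Msgn1 was at 0.975 and 0 TPM in Stk40-/- cells and at 90.6 and 7.22 TPM in wild type, and the streak factor Mixl1 was at 2.06 and 1.71 TPM in Stk40-/- cells and at 24.7 and 6.77 TPM in wild type. Of 12 mesoderm markers 6 were tested, and in 5 of them both Stk40-/- values were below both wild-type values, against 16.6% of all tested genes. Among those, Msgn1 and Evx1 had means of only 0.487 and 0.353 TPM in Stk40-/- cells. They passed the filter through wild type and so were bound to differ, which makes this count a description. The exception among the tested was Eomes, at 2.82 and 2.51 TPM in Stk40-/- cells and at 3.91 and 2.37 TPM in wild type. Below the filter, Mesp2 was highest in Stk40-/- library 2, at 1.61 TPM, and Kdr in Stk40-/- library 1, at 0.211 TPM. The other untested markers, Tbx6, Lhx1, Pdgfra and Mesp1, were highest in wild-type library 1, at 2.33, 1.90, 0.992 and 0.177 TPM. The summed level of the 12 markers, mostly T, was 415 and 267 TPM in Stk40-/- cells and 1258 and 638 TPM in wild type. In bulk RNA, fewer cells of a type and less RNA per cell cannot be told apart, and the part of mesodermal cell number in the lower Wnt5a, Wnt3a, Wnt5b and Rspo3 values was not tested. Most tested markers of feeder fibroblasts, which also express several Wnt genes, were lower in Stk40-/- cells too: in 4 of 6 (Col1a1, Col3a1, Col1a2 and Fbn1) the groups did not overlap, against 16.6% of all tested genes, and the median log2 fold change of the 6 was -0.42. Col3a1 was at 0.113 and 0.609 TPM in Stk40-/- cells and at 1.35 and 6.31 TPM in wild type, and Col1a2 was at 1.33 and 2.31 TPM in Stk40-/- cells and at 2.80 and 6.87 TPM in wild type. With a mean of 0.361 TPM in Stk40-/- cells, Col3a1 passed the filter through wild type and was bound to differ. Col1a1 was at 3.96 and 3.74 TPM in Stk40-/- cells and at 6.98 and 7.29 TPM in wild type. Fbn1 was only just apart, at 2.49 and 2.59 TPM in Stk40-/- cells and at 2.86 and 2.73 TPM in wild type (log2 fold change -0.10, SE 0.27). The 10 feeder markers summed to 23.8 and 21.3 TPM in Stk40-/- cells and to 25.1 and 36.0 TPM in wild type, sums in which Thy1 alone was 13.1 and 9.17 TPM in Stk40-/- cells and 7.28 and 9.42 TPM in wild type. Lum was at most 0.0791 TPM in any library. The part of feeder cells in the lower values was not tested.

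**Figure D2:**
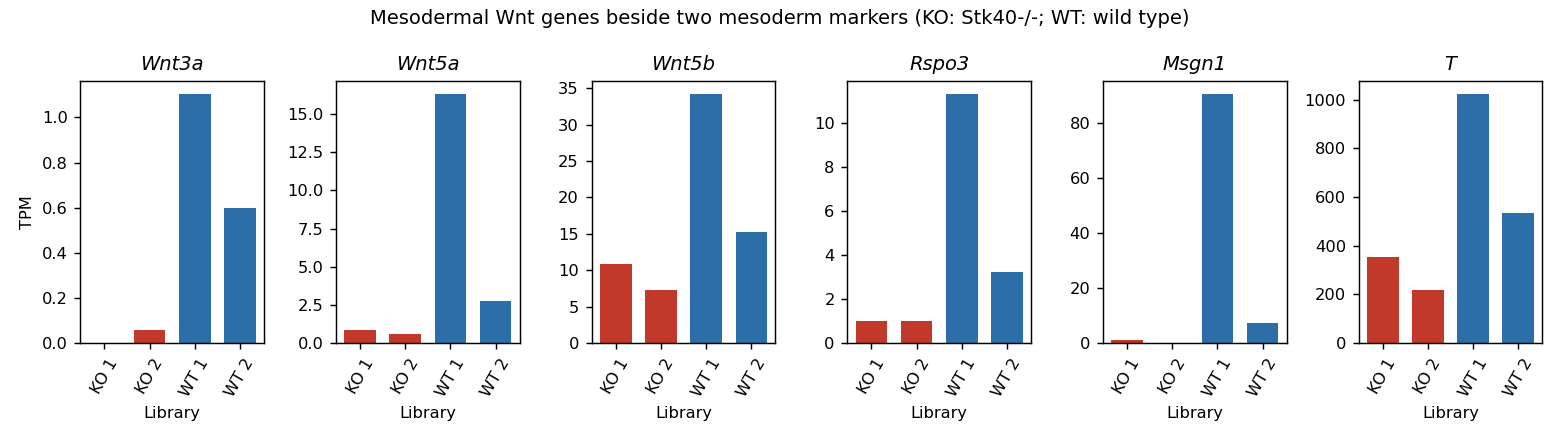
TPM per library, each panel with its own linear axis from 0, for Wnt3a, Wnt5a, Wnt5b and Rspo3 and for the mesoderm markers Msgn1 and T (red: Stk40-/-, blue: wild type). In all 6 panels wild-type library 1 is highest, wild-type library 2 second and the Stk40-/- libraries lowest.

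The remaining tested ligands went both ways. Wnt9a was at 7.02 and 6.69 TPM in Stk40-/- cells and at 3.91 and 3.85 TPM in wild type, with replicates close together in both genotypes (log2 fold change 0.69, SE 0.20, limma adjusted p = 0.403). Its value kept between 0.66 and 0.72 whichever library was left out. Wnt9a (ENSMUSG00000000126.11; GRCm38 chromosome 11, 59306928 to 59333552) is the divergent neighbour of Wnt3a (ENSMUSG00000009900.7; 59248033 to 59290752), so the pair that shares 1 intergenic stretch differed in direction. Wnt16 was at 1.66 and 2.88 TPM in Stk40-/- cells and at 0.604 and 1.01 TPM in wild type, also without overlap (log2 fold change 0.84, SE 0.42, limma adjusted p = 0.541). Wnt6 was at 5.29 and 1.61 TPM in Stk40-/- cells and at 10.0 and 5.17 TPM in wild type, and its groups overlapped (log2 fold change -1.02, SE 0.56). Its value was -0.39 if Stk40-/- library 2 was left out and -1.66 if Stk40-/- library 1 was. An antisense gene over Wnt6, Gm29539, was at 0.666 and 0 TPM in Stk40-/- cells and at 1.74 and 0 TPM in wild type. Wnt11, which guides cell movements in gastrulation, and Wnt4 overlapped between the genotypes as well, both below 3 TPM.

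The other ligand pairs of the genome were uneven in level. Wnt3 lies 24.3 kb from Wnt9b, which had at most 0.167 TPM in any library. Wnt6 lies 6.19 kb from Wnt10a, which had 0.152 and 0 TPM in Stk40-/- cells and 0.726 and 0 TPM in wild type. Wnt1, the neighbour of Wnt10b, was the 1 member listed at 0 in all 4 libraries. Wnt10b just missed the filter, with 0.896 and 1.28 TPM in Stk40-/- cells and 0.580 and 0.801 TPM in wild type. Wnt2, Wnt2b, Wnt7a, Wnt7b and Wnt8b all stayed below 1 TPM.

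**Figure D3:**
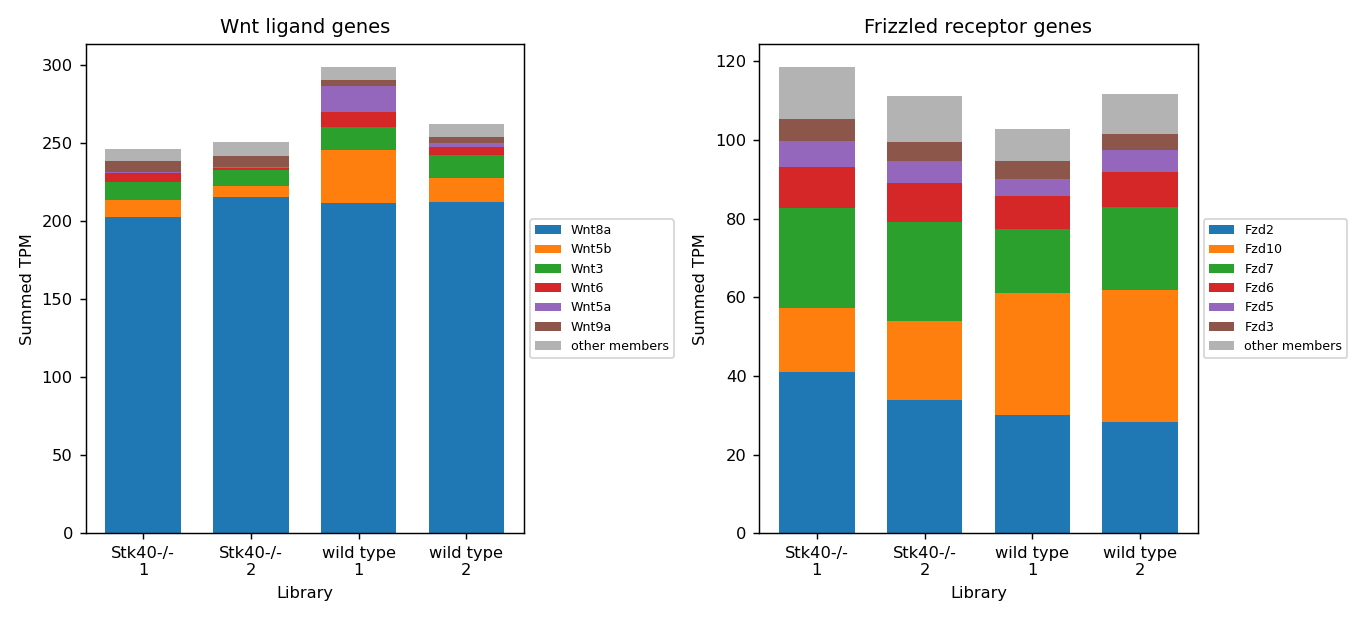
Summed TPM of the Wnt ligand genes (left) and the Frizzled genes (right) in each library, split by gene, Stk40-/- libraries left of wild-type libraries. Wnt8a fills most of each ligand bar, and the Fzd10 segment is 16.1 and 19.9 TPM in Stk40-/- cells and 31.1 and 33.7 TPM in wild type.

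Both genes needed to make an active ligand were lower in Stk40-/- cells. Wls, the Wnt carrier, was at 45.5 and 31.4 TPM in Stk40-/- cells and at 68.6 and 49.9 TPM in wild type (log2 fold change -0.62, SE 0.25, limma adjusted p = 0.484). Its 2 groups did not overlap but came close, and the value was -0.36 if Stk40-/- library 2 was left out and -0.39 if wild-type library 1 was. Porcn, the acyltransferase, was at 9.63 and 9.35 TPM in Stk40-/- cells and at 18.1 and 23.3 TPM in wild type, a ratio of means of 0.458 (log2 fold change -1.04, SE 0.18, limma adjusted p = 0.289). This was the smallest unadjusted p of the family (0.00342), and the value stayed between -1.21 and -0.87 with any 1 library left out.

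Porcn (ENSMUSG00000031169.13; GRCm38 chromosome X, 8193848 to 8206525) lies in a stretch of the X chromosome in which most genes were lower, examined after the values were seen. Of 28 other protein-coding genes that averaged 5 TPM or more within 1 Mb of Porcn, 26 had both Stk40-/- values below both wild-type values and 0 had both above. Their median log2 fold change was -1.18, and 19 of the 28 were at or below the value of Porcn. Over 363 such genes on the whole X chromosome the median was 0.07, and over 9712 autosomal genes it was 0.07. The nearest neighbour, the sterol enzyme gene Ebp, was at 21.4 and 24.2 TPM in Stk40-/- cells and at 69.7 and 64.1 TPM in wild type. The difference at Porcn was thus smaller than or equal to that at most genes around it, and a change of the gene alone cannot be told apart from one of the stretch.

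**Figure D4:**
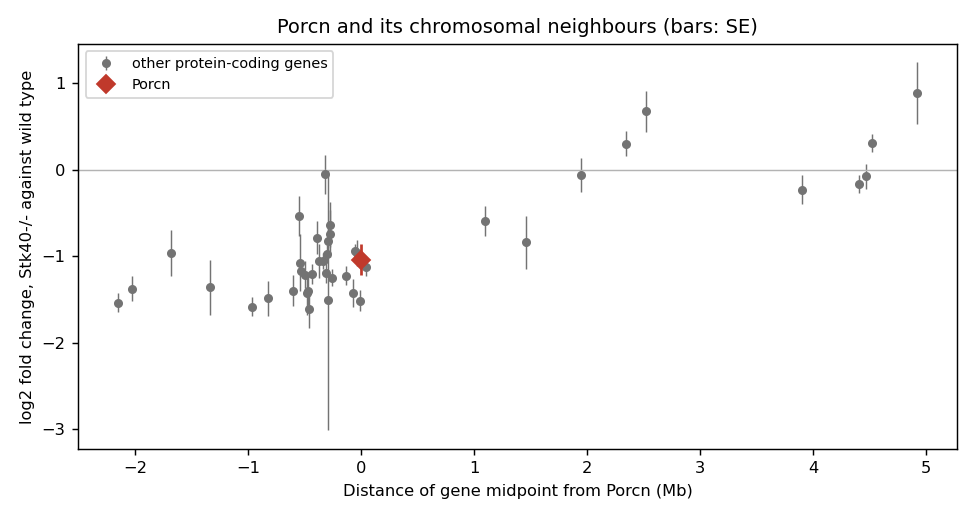
Log2 fold change of Stk40-/- against wild type with its SE for Porcn (red diamond) and for 42 protein-coding genes within 5 Mb of it, against the distance of the gene midpoints in Mb. Genes from about 2 Mb on one side to 1 Mb on the other lie mostly near -1, and Porcn lies among them at -1.04.

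Of the 10 Frizzled genes, all tested, Fzd10 was lower and 7 were higher in Stk40-/- cells without overlap of the groups, patterns found in 16.6% and 27.5% of all tested genes. Fzd10, a receptor gene marking the streak and tailbud, was at 16.1 and 19.9 TPM in Stk40-/- cells and at 31.1 and 33.7 TPM in wild type (log2 fold change -0.82, SE 0.15, limma adjusted p = 0.306). Its unadjusted p was 0.00481, and the value stayed between -0.96 and -0.67 with any 1 library left out. Fzd10 took 13.6% and 17.9% of the summed Frizzled TPM in Stk40-/- cells, against 30.2% and 30.2% in wild type. In wild type it was the highest Frizzled in both libraries, and in Stk40-/- cells it ranked below Fzd2 and Fzd7.

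Fzd2 was at 41.0 and 34.0 TPM in Stk40-/- cells and at 30.0 and 28.2 TPM in wild type (log2 fold change 0.35, SE 0.14, limma adjusted p = 0.473). Fzd7, a receptor known for its part in maintaining embryonic stem cells, was at 25.5 and 25.3 TPM in Stk40-/- cells and at 16.3 and 21.0 TPM in wild type (log2 fold change 0.44, SE 0.17, limma adjusted p = 0.460). The ratio of Fzd10 to Fzd2 was 0.393 and 0.586 in Stk40-/- cells, against 1.04 and 1.20 in wild type, and a 2 against 2 comparison of such a ratio cannot give an exact permutation p below 0.333. Fzd9 was at 3.94 and 2.64 TPM in Stk40-/- cells and at 1.72 and 1.27 TPM in wild type (log2 fold change 0.77, SE 0.34). Fzd3, Fzd4, Fzd5 and Fzd6 were higher by smaller amounts, with log2 fold changes between 0.20 and 0.26 and SEs between 0.16 and 0.27. Fzd5 reached 6.55 and 5.58 TPM in Stk40-/- cells and 4.27 and 5.57 TPM in wild type, so its groups were only just apart.

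Fzd1 and Fzd8 overlapped between the genotypes and changed sign without wild-type library 1 (log2 fold change of Fzd8 0.35 with all libraries and -0.13 without it). The summed Frizzled level was 119 and 111 TPM in Stk40-/- cells and 103 and 112 TPM in wild type, and these ranges overlapped. Without Fzd10 the sum was 102 and 91.2 TPM in Stk40-/- cells, against 71.7 and 78.1 TPM in wild type. The levels of Fzd5 and Fzd3 were not separated from each other in either genotype, nor were those of Fzd4 and Fzd8.

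The co-receptor genes were higher by small amounts in Stk40-/- cells, with intervals that span no change. Lrp6 was at 22.6 and 25.4 TPM in Stk40-/- cells and at 20.1 and 18.9 TPM in wild type (log2 fold change 0.28, 95% interval from limma -0.07 to 0.64). Lrp5 was at 33.4 and 31.9 TPM in Stk40-/- cells and at 28.9 and 31.6 TPM in wild type (log2 fold change 0.11, 95% interval from limma -0.20 to 0.41). Both pairs of groups were apart, Lrp5 by a margin smaller than the gap between its wild-type libraries.

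Among secreted modulators, the binding proteins Sfrp1 and Sfrp2 were higher in Stk40-/- cells. Sfrp2 was at 30.6 and 33.1 TPM in Stk40-/- cells and at 15.9 and 27.9 TPM in wild type (log2 fold change 0.57, SE 0.29, limma adjusted p = 0.541). Leaving out wild-type library 1 made the value 0.18, and leaving out wild-type library 2 made it 0.95. Sfrp1 was at 14.9 and 15.6 TPM in Stk40-/- cells and at 10.8 and 12.6 TPM in wild type (log2 fold change 0.36, SE 0.15, limma adjusted p = 0.494). Sfrp2 made up 65.6% and 63.8% of the summed TPM of this class in Stk40-/- cells and 57.2% and 65.9% in wild type. Sfrp5, below the filter, was at 0.454 and 0.855 TPM in Stk40-/- cells and at 0.191 and 0.168 TPM in wild type, and Sfrp4 and Frzb overlapped.

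Some markers of other cell states were higher in Stk40-/- cells, as these Frizzled and Sfrp genes were. Of 4 tested neural markers, 3 (Tubb3, Sox3 and Sox1) were higher in Stk40-/- cells without overlap, against 27.5% of all tested genes, with a median log2 fold change of 0.60 over the 4. With a wild-type mean of 0.653 TPM, Sox1 passed the filter through Stk40-/- cells and was bound to differ. The 6 neural markers summed to 84.4 and 118 TPM in Stk40-/- cells and to 72.7 and 80.0 TPM in wild type. Tubb3, a neuronal tubulin, was at 4.84 and 11.5 TPM in Stk40-/- cells and at 2.66 and 3.97 TPM in wild type. Of 6 tested pluripotency markers 2 (Nanog and Klf4, 33.3%) were higher and 1 (Zfp42, 16.7%) was lower without overlap. These shares are near the 27.5% and 16.6% of all tested genes and are not a result about these markers. Fold changes were positive in 3 of the 6 and negative in 3. The summed level of the 6 was 636 and 685 TPM in Stk40-/- cells and 522 and 657 TPM in wild type. Nanog was at 219 and 166 TPM in Stk40-/- cells and at 113 and 132 TPM in wild type. Its log2 fold change was 0.64 (SE 0.17), and that of Zfp42, the lower one, was -0.44 (SE 0.13). Sox2, Esrrb and Pou5f1 overlapped, with log2 fold changes of 0.52, -0.036 and -0.0084. Of 3 tested endoderm markers 1 was lower without overlap, against 16.6% of all tested genes, and 2 overlapped. The lower one was Dab2, with a log2 fold change of -0.24 (SE 0.20). The part of such cells in the Frizzled and Sfrp values was not tested.

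Rspo1 was the higher of the R-spondins in Stk40-/- cells, at 4.85 and 7.30 TPM, against 11.0 and 5.57 TPM in wild type, and its groups overlapped. The ratio of Sfrp2 to Rspo1 was 6.30 and 4.53 in Stk40-/- cells and 1.45 and 5.01 in wild type, which sets wild-type library 1 apart from the other 3. Rspo2 and Rspo4 had at most 0.365 TPM. Dickkopf genes were low in both genotypes. Dkk1, an inhibitor and known target of beta-catenin signalling, was at 0.248 and 0.190 TPM in Stk40-/- cells and at 0.952 and 0.157 TPM in wild type, with its 1 high value again in wild-type library 1. Dkk3, the only tested Dickkopf gene, was at 1.61 and 1.59 TPM in Stk40-/- cells and at 1.31 and 2.26 TPM in wild type. Dkk2 and Dkk4 had at most 0.126 TPM.

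**Figure D5:**
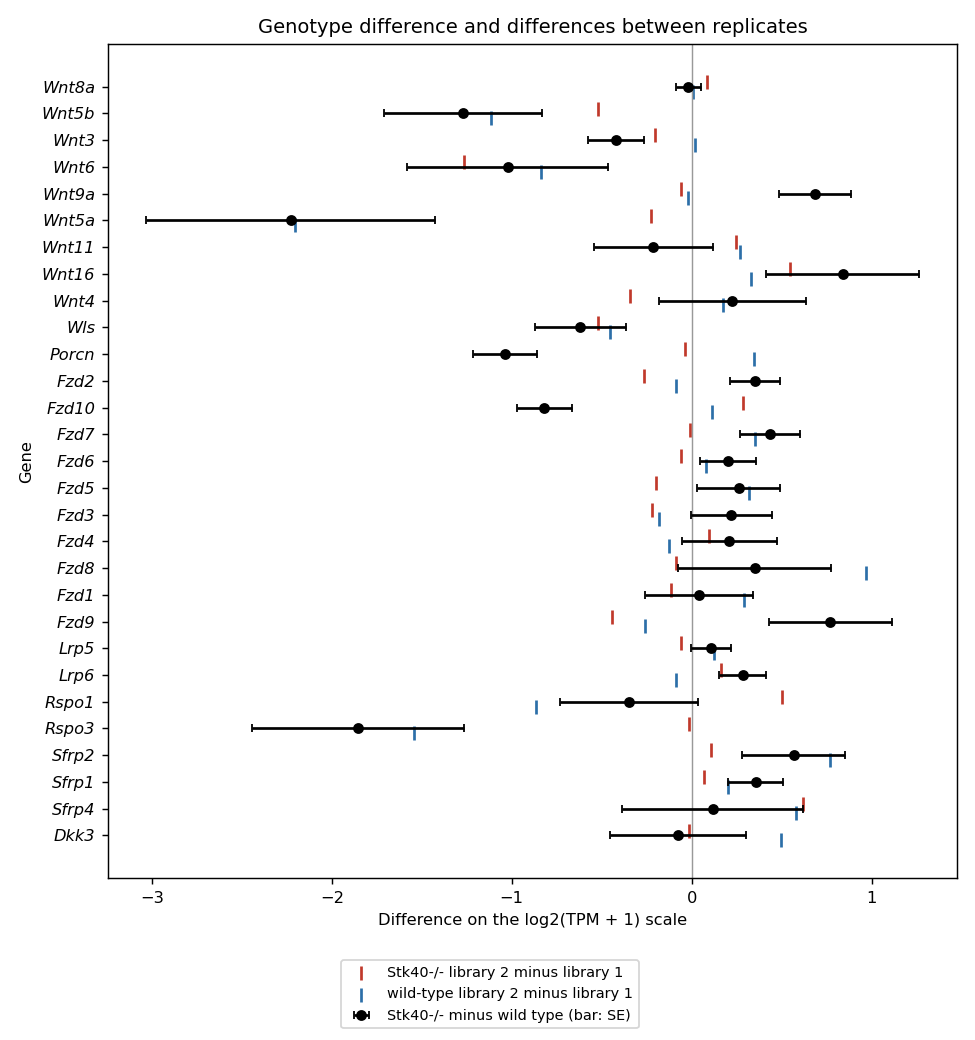
Differences on the log2(TPM + 1) scale for the 29 tested members: black points with SE bars are Stk40-/- minus wild type, red ticks Stk40-/- library 2 minus library 1, blue ticks wild-type library 2 minus library 1. The blue ticks of Wnt5a, Wnt5b and Rspo3 lie close to the genotype difference, and those of Porcn, Fzd10 and Wnt9a lie far from it.

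The rest of the pathway was counted from lists of its other genes, and 0 of their members passed in limma over all genes. Of 30 tested intracellular genes of the beta-catenin pathway, both Stk40-/- values were above both wild-type values in 11 (36.7%) and below in 6, with a median log2 fold change of 0.08. Over all tested genes these shares were 27.5% and 16.6%, and a share near them is not a result about a list. Axin2, a scaffold of the destruction complex and a feedback target, was at 25.1 and 21.0 TPM in Stk40-/- cells and at 38.3 and 29.8 TPM in wild type (log2 fold change -0.54, SE 0.18). Dvl1, which relays the signal from Frizzled, was at 30.5 and 28.5 TPM in Stk40-/- cells and at 21.7 and 18.5 TPM in wild type (log2 fold change 0.53, SE 0.14). Ctnnb1, the beta-catenin gene, was at 474 and 468 TPM in Stk40-/- cells and at 482 and 512 TPM in wild type.

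Of 17 tested genes for other Wnt receptors and their regulators, 5 (29.4%) were higher without overlap and 1 (5.88%) was lower (median log2 fold change 0.10). For this list and those that follow, the shares of all tested genes were 27.5% higher and 16.6% lower. The planar polarity cadherin Celsr3 was at 6.16 and 7.92 TPM in Stk40-/- cells and at 2.20 and 4.25 TPM in wild type, and the Wnt5a receptor gene Ror1 was at 3.44 and 4.06 TPM in Stk40-/- cells and at 1.68 and 2.08 TPM in wild type. Lgr4, a receptor for R-spondins, overlapped, with 61.1 and 51.0 TPM in Stk40-/- cells and 56.4 and 54.6 TPM in wild type. Of 7 tested extracellular inhibitors outside the family, 1 was lower and 1 higher without overlap (14.3% each). The higher one, Shisa3, had a wild-type mean of 0.641 TPM, passed the filter through Stk40-/- cells and was bound to differ. The lower one was Notum, an enzyme that removes the lipid from Wnts, at 0.562 and 1.50 TPM in Stk40-/- cells and at 5.70 and 4.01 TPM in wild type (log2 fold change -1.55, SE 0.40, limma adjusted p = 0.399). Of 7 tested genes for glypicans and heparan sulfatases, which affect how Wnts spread, 2 (28.6%) were higher and 1 (14.3%) was lower without overlap. The glypican Gpc1 was at 27.3 and 26.6 TPM in Stk40-/- cells and at 22.1 and 22.1 TPM in wild type. Gpc6, also higher, was at 2.50 and 2.61 TPM in Stk40-/- cells and at 1.48 and 1.32 TPM in wild type. Gpc3, the lower gene, was at 39.2 and 30.8 TPM in Stk40-/- cells and at 58.8 and 39.4 TPM in wild type.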

How the data were processed

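RNA sequencing values of 2 Stk40-/- and 2 wild-type libraries at day 3 were used, grouped and numbered by the sample titles. The authors deposited 1 TPM value per gene and library, per the file headers, and the values of a library summed to 1000000. Per the submitters' processing notes, CASAVA 1.7 and Salmon 0.8.2 were used. Those notes name the human build hg38, whereas the IDs are mouse Ensembl IDs, and the annotation behind the values is unknown here. Poly(A) RNA was read in pairs of 100 or 150 bases on 2 instruments, per the labels, with no key to the libraries, so no batch term could be fitted. TPM keeps no depth, so the precision of single values is unknown. All per-sample columns were used.

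Gene positions are those of GENCODE vM21 (GRCm38), in which all 46 members were found by ID, 38 of them with the same version. limma 3.58.1 in R 4.3.3 was fitted to log2(TPM + 1) for genes averaging 1 TPM or more, with an intensity trend, no replicate block and a threshold of 0.05 on Benjamini-Hochberg p-values. The procedure was tested on simulated data. The members and lists were chosen with earlier results of these data known. Named were all tested members, lower members reaching 1 TPM, and, from each list, genes of smallest p or defining markers. The members that stay below 1 TPM in every library, Ctnnb1, Lgr4, genes overlapping a member and the Porcn neighbour Ebp were added after their values were seen. Promoter windows came from RefSeq on GRCm38.p6. Alternatives were other pseudocounts (0.1, 0.01), filters, scalings, no trend, the replicate block and leaving out each library.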

Additional observations from a re-analysis of the deposited data

How the results depend on the processing

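No member and no gene overall passed in limma under any of the 12 alternatives run, so the count of calls was 0 throughout, also when each library was left out. Of the 29 tested members, 9 were negative and 14 positive in every setting in which they could be fitted, and 6 changed sign somewhere. Without wild-type library 1 the log2 fold change was -0.134 for Fzd8, -0.105 for Fzd1, -0.174 for Sfrp4 and 0.0842 for Rspo1. Leaving out each library in turn gave -0.0628 to 0.0239 for Wnt8a, the highest without Stk40-/- library 1, and -0.134 to 0.834 for Fzd8. It gave -0.105 to 0.189 for Fzd1, also negative without Stk40-/- library 1 (-0.0157), and -0.782 to 0.0842 for Rspo1. It gave -0.192 to 0.425 for Sfrp4, the lowest without Stk40-/- library 2, and -0.326 to 0.172 for Dkk3, positive without wild-type library 2. After scaling by median ratios the value of Fzd1 was -0.0065. That scaling gave 9 tested members lower and 10 higher with no overlap in place of 7 and 13, and moved the median of all genes to 0.0033. Under it 972 lower and 656 higher genes had an unadjusted limma p under 0.05, in place of 710 and 1020. Which direction was the more frequent over all genes thus depended on the scaling. The shares of all tested genes without overlap were not counted under it. Leaving out 1 library gave 8 to 11 lower members and 13 to 18 higher ones, with 11 in the absence of wild-type library 1 and 18 in that of wild-type library 2. These counts were chosen after seeing the data, and a lone library separates more easily. The shares of all tested genes without overlap were not counted with a library left out either. The left-out counts thus have no background and are not a result about the members. A left-out arm of 1 library was assumed to vary like the other genotype. With the replicate block 0 members passed (smallest limma adjusted p = 0.289), and 836 lower and 1282 higher genes had an unadjusted p under 0.05. Same-numbered libraries share only a number, and their deviations correlated at 0.0893 over genes. The unknown depth limits every value near or below 1 TPM.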
